A study of Mus musculus with 5 samples.

Results

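A pair of mouse gastric organoid lines with the same labelled genotype, Trp53 loss and a short hairpin RNA against Cdh1, were compared with each other. Each line had been recovered from a subcutaneous tumour, hairpin 1 from a tumour carrying shCdh1 #1 and hairpin 2 from a tumour carrying shCdh1 #2, and each was read on 1 array of the same slide. These are 2 of the 5 one-colour Agilent arrays of the study. The other 3 were used to place the differences. The control on the same slide was an organoid line from Trp53flox/flox mice that carried the pLKO.1 vector with a luciferase hairpin (shLuc) and was taken before injection. The Apc array (Apc580D with Trp53 loss) and the Pik3ca array (Pik3caH1047R with Trp53 loss), both from tumour-derived organoids, lay on another slide. The labels give stomach as the tissue and female as the sex of every sample, and the medium of all lines contained EGF, R-spondin1, Noggin, Jagged-1 and CHIR-99021. They do not say which animal, culture or cell clone a line came from, so hairpin, tumour and line cannot be told apart, and with 1 array per hairpin no difference below has a replicate check or a p-value.

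Cdh1 encodes E-cadherin, the calcium-dependent adhesion protein of epithelial junctions, whose loss is the founding lesion of hereditary diffuse gastric cancer. The gastric epithelium contains pit cells that secrete surface mucus, neck and chief cells that secrete gland mucus and zymogens, parietal cells and endocrine cells, and gastric tumours may in addition express genes of the intestine. Wnt and YAP signalling act on the growth of this epithelium, and antigen processing genes show its peptides to T cells.

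A gene was counted as divergent when its probe was well above background on both hairpin arrays and its signal differed at least 2-fold between them. Levels are log2 processed signal minus the 75th percentile of the array, so that 0 is that percentile, and a difference is hairpin 1 minus hairpin 2 on the log2 scale. Of 15138 genes well above background on both arrays, 1189 were divergent (7.85%). Of these, 446 were higher with hairpin 1 (2.95%) and 743 were higher with hairpin 2 (4.91%), so that 62.5% of the divergent genes had the higher level with hairpin 2. At least 4-fold apart were 306 genes, 104 higher with hairpin 1 and 202 higher with hairpin 2. Over all 15138 genes the median difference was 0.01 and the median absolute difference 0.27. The genes just inside the threshold were Cox7b2, Olfr30 and Rbm43, with absolute differences of 1.0002 to 1.0016, and those just outside were Tmem74b, Hcrtr1 and Pde3b, with 0.9993 to 0.9984.

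**Figure D1:**
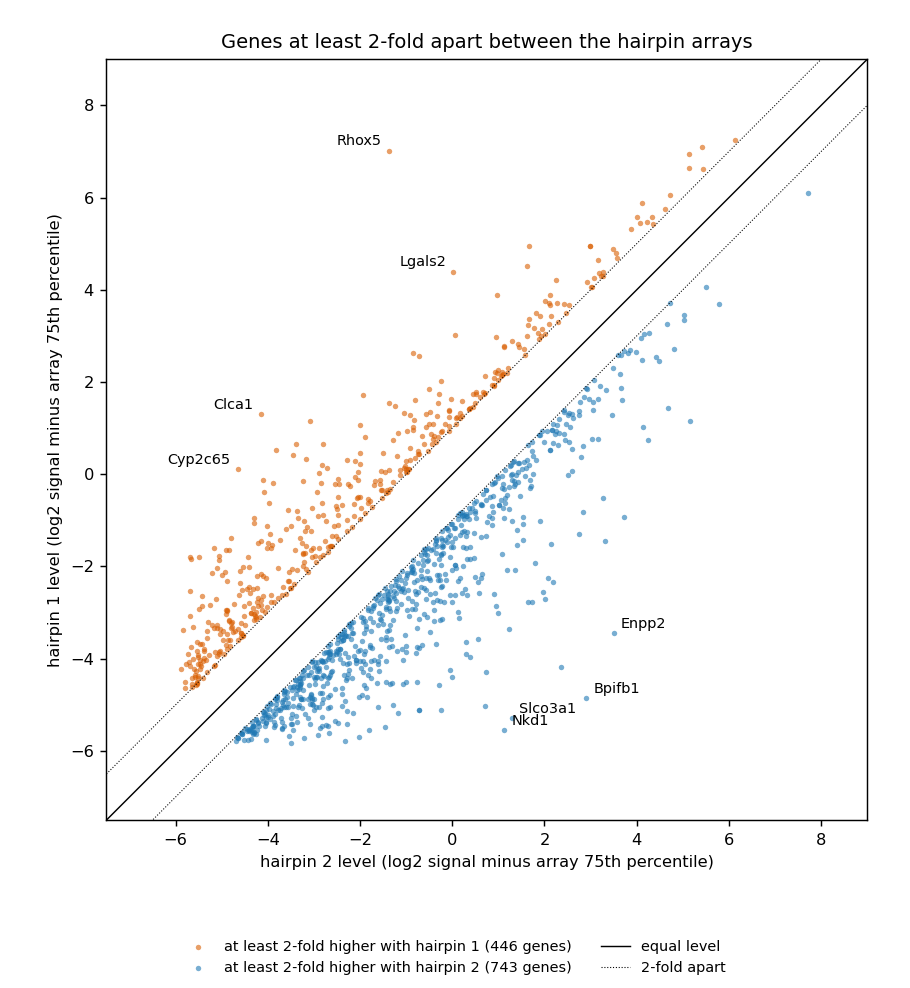
Level of each of the 1189 divergent genes with hairpin 2 (horizontal axis) and hairpin 1 (vertical axis), in log2 signal minus the 75th percentile of the array, with 1 point per gene, a solid line at equal levels and dotted lines at 2-fold. The 446 genes above the line were higher with hairpin 1 and the 743 below it were higher with hairpin 2, and Rhox5 and Bpifb1 lie farthest from it.

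The labels were first checked on the targeted genes. Cdh1 had levels of 4.39 on the control, 0.07 with hairpin 1, 0.26 with hairpin 2, 4.48 on Apc and 4.58 on Pik3ca. Both hairpin arrays were thus low and the other 3 high, 17.6-fold (hairpin 2) to 20.03-fold (hairpin 1) below the control, and the difference between the hairpins was −0.19. Trp53 was at 0.85 on the control, −5.06 with hairpin 1, −5.09 with hairpin 2, −5.86 on Apc and −4.86 on Pik3ca. Thus neither the knockdown of Cdh1 nor the loss of Trp53 signal was divergent between the hairpins. Epithelial markers (6 of 6) and gastric markers (8 of 8) were well above background on all 5 arrays, among them Epcam at 3.72 with hairpin 1 and 4.21 with hairpin 2, and Krt8 at 7.50 and 6.75. Of 6 fibroblast markers, 1 was well above background with hairpin 1 and 3 with hairpin 2, with a summed level of −3.38 and −3.03, and Lum and Dcn were on neither array. Of 6 leukocyte markers, 4 were on each, at summed levels of 2.97 and 2.73. Itgam was at 2.47 with hairpin 1 and 2.28 with hairpin 2, Csf1r at 0.36 and −0.21, and Cd3e at −0.02 and −0.22. These were well above background on all 5 arrays, the control included. Ptprc was low, at −4.86 and −4.75, and Adgre1 and Tyrobp were on neither array. The Xist probe was at −0.83 with hairpin 1 and −0.82 with hairpin 2, and the Pik3ca array alone had Xist at background and the Y-linked Eif2s3y well above it, against its label.

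The spread within an array was small beside these differences. Probes printed at 10 spots each had repeats with a median SD of 0.042 log2 units with either hairpin, which gives a difference between the arrays an SD of 0.059. This covers spotting and scanning, not the spread between cultures. Dim genes were divergent more often, with 13.7% in the lowest quartile of mean signal and 2.17% in the highest. Of the 294 divergent genes with another probe well above background on both arrays, 262 had all their other probes in the same direction. Another probe was at least 2-fold apart the same way in 179 and the opposite way in 1. Over all 5608 genes with such a probe, divergent or not, the same counts were 3944, 307 and 29.

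Among the genes higher with hairpin 2, the largest difference was in Bpifb1, a secreted protein of mucosal surfaces. Its level was 2.24 on the control, −4.86 with hairpin 1, 2.90 with hairpin 2, 0.34 on Apc and −1.60 on Pik3ca. Hairpin 1 stood below all 4 other arrays, and the difference between the hairpins was 217-fold. Enpp2 encodes autotaxin, the secreted enzyme that makes lysophosphatidic acid. Its level was −6.57 on the control, −3.45 with hairpin 1, 3.50 with hairpin 2, 0.52 on Apc and 1.61 on Pik3ca. Here hairpin 2 was the highest of the 5 arrays, 124-fold above hairpin 1. Slco3a1, an organic anion transporter, was at −4.41, −5.30, 1.30, −1.20 and −4.06 in the same order of arrays, and its other probe was also lower with hairpin 1, by 4.39. Hairpin 2 was the highest array for Slco3a1 as well, and the control, hairpin 1 and Pik3ca were low.

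The other genes among the 20 with the largest excess with hairpin 2 included secreted and surface proteins and regulators of transcription. Vcam1, a receptor for leukocyte integrins, was at −4.64 on the control, −2.34 with hairpin 1, 2.19 with hairpin 2, −1.02 on Apc and −1.57 on Pik3ca. Pamr1, a secreted protease-like protein, was at −4.18, −3.36, 1.22, −1.90 and −2.83 in that order, so that in both genes hairpin 2 exceeded every other array by more than 3 log2 units. Myh10, a non-muscle myosin heavy chain, was at −3.70, −2.77, 1.65, 1.88 and −0.69, high with hairpin 2 and on Apc. The interferon-inducible membrane protein gene Ifitm1 was at −1.07, −0.92, 3.74, 4.30 and 5.22, with only the control and hairpin 1 low. Scx, Plpp3, Cp, Fbln2, Rgs16, Bend4, Nrep and Ttc12 were 20.2-fold to 32.7-fold higher with hairpin 2. Mir100hg belongs to the same 20 genes at 20.9-fold but is uncertain, because its other 2 probes gave differences of −3.30 and 0.03. The size is also uncertain for Cp, whose other probes gave −2.15 and −3.49, and with the mean over probes Cp was 11.1-fold, Mir100hg 5.87-fold and Slco3a1 45.0-fold apart. The size of the leading differences depended on the background correction. With normexp, which adds an offset, 29 of the 40 largest differences (20 each way) were smaller by over 1.5 times, Bpifb1 at 74.8-fold, Enpp2 at 64.8-fold and Slco3a1 at 24.7-fold, while all 40 kept their direction and stayed past 2-fold.

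Among the genes higher with hairpin 1, Rhox5, an X-linked homeobox gene of reproductive tissues, had the largest difference of all. Its level was 1.40 on the control, 7.02 with hairpin 1, −1.37 with hairpin 2, −0.06 on Apc and 7.42 on Pik3ca. Hairpin 1 and Pik3ca were high and the other 3 low, the hairpins were 335-fold apart, and another Rhox5 probe gave a difference of 8.45 on the log2 scale. Lgals2, a galectin of gastrointestinal epithelium, was at 3.30, 4.39, 0.02, 0.87 and 2.29 in the same order, highest with hairpin 1. Gngt2, a G protein gamma subunit, was at −1.71, 0.52, −3.82, −3.16 and −0.43, and Sult1d1, a sulfotransferase, at −0.17, 1.16, −3.09, −1.23 and 0.40. In both genes hairpin 1 was the highest and hairpin 2 the lowest of the 5 arrays. Krt4, a keratin of stratified epithelia, was at −2.46, −1.61, −5.17, −2.87 and −0.99, with hairpin 2 below every other array. Adtrp and Nlrp6 were 14.9-fold and 10.7-fold higher with hairpin 1. With normexp Adtrp, Nlrp6 and Krt4 fell to 4.11-fold, 4.76-fold and 3.91-fold, while Rhox5 and Lgals2 stayed at 290-fold and 18.6-fold.

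**Figure D2:**
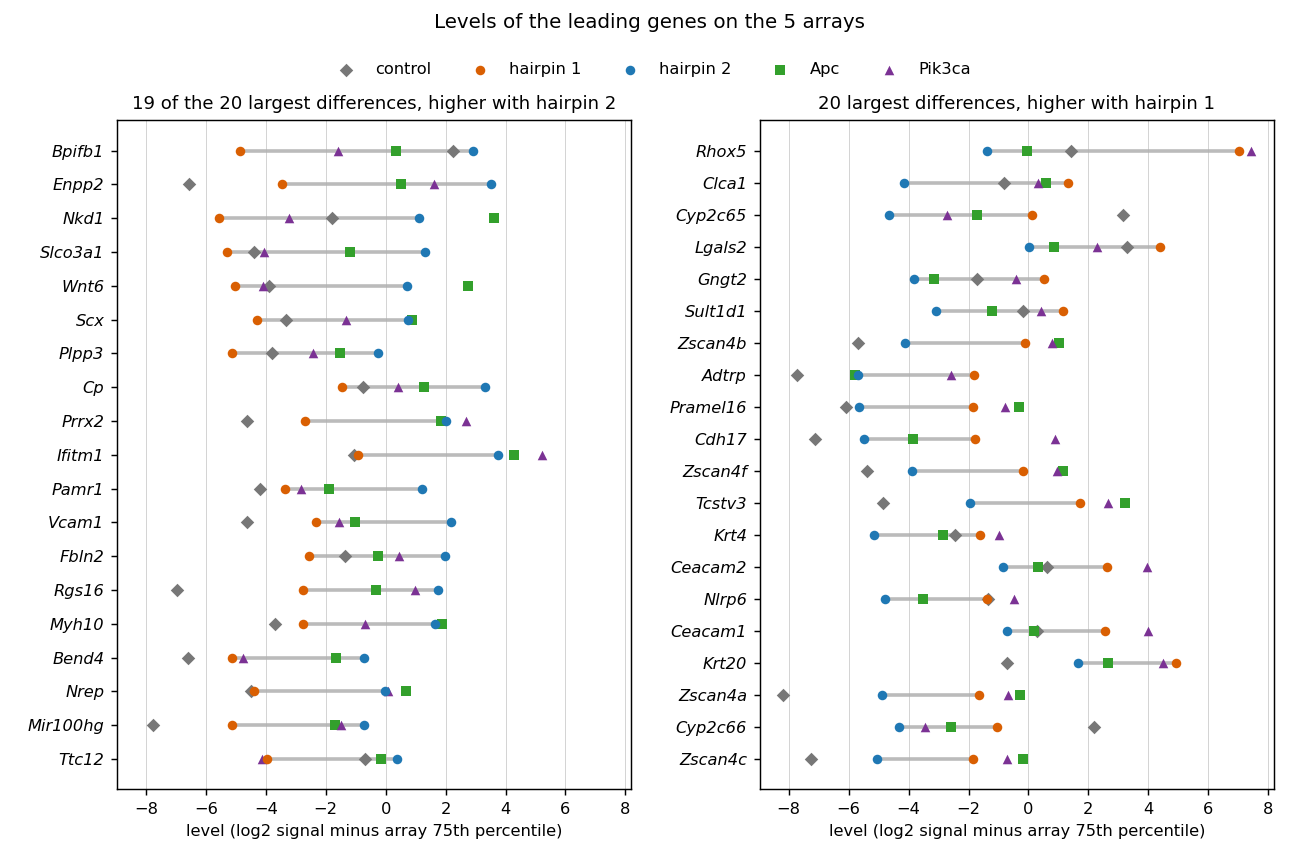
Levels on the 5 arrays (horizontal axis, log2 signal minus the 75th percentile of the array) of 19 of the 20 genes with the largest difference toward hairpin 2 and the 20 toward hairpin 1, with a grey bar joining hairpin 1 to hairpin 2. For the 20 genes higher with hairpin 2, Apc lay nearer hairpin 2 in 17 and the control nearer hairpin 1 in 17, and for those higher with hairpin 1, Pik3ca lay nearer hairpin 1 in 18.

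The divergent genes were then read by function, in 55 lists of genes. Members are described where they were well above background on both hairpin arrays, and counts are set beside the shares over all genes, 2.95% higher with hairpin 1 and 4.91% higher with hairpin 2. Of the 54 lists with at least 5 such members, 11 had a median difference of at least 0.5 in size, 5 toward hairpin 1 and 6 toward hairpin 2, against a median of 0.01 over all genes. Some lists share members, so these counts are not independent of each other.

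**Figure D3:**
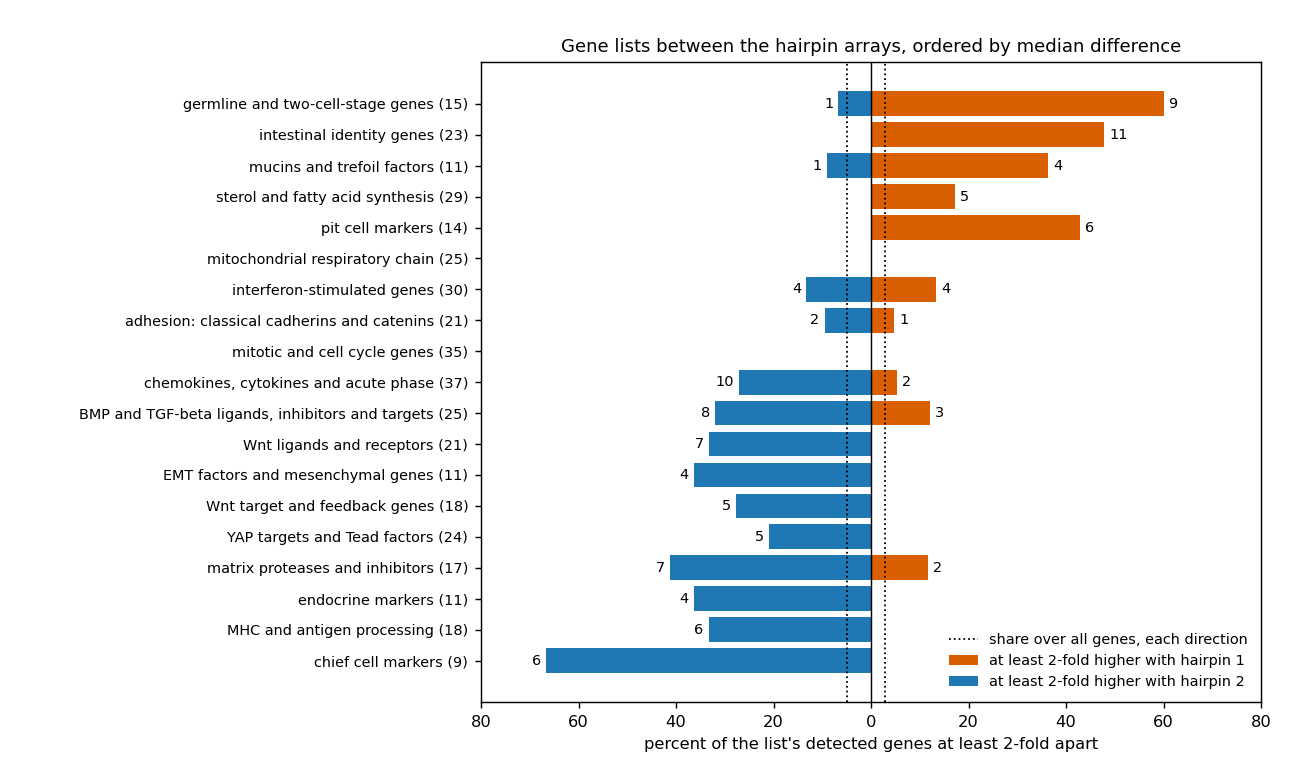
Percent of the detected genes of each list (number in brackets) that were at least 2-fold higher with hairpin 1 (right) or hairpin 2 (left), with counts at the bars and dotted lines at the shares over all genes (2.95% and 4.91%), for the 11 lists with a median shifted by at least 0.5 and 8 others, ordered by median. The germline list had 9 of 15 genes higher with hairpin 1 and the chief cell list 6 of 9 higher with hairpin 2. None of 35 mitotic genes was 2-fold apart, but these are bright, and 2.17% of genes in the brightest quartile were divergent.

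Intestinal identity genes were higher with hairpin 1. Of 23 detected members, 11 were at least 2-fold higher with hairpin 1 and 0 with hairpin 2, and the median was 0.96. Clca1, a secreted product of goblet cells, was at −0.83 on the control, 1.30 with hairpin 1, −4.15 with hairpin 2, 0.59 on Apc and 0.33 on Pik3ca. Only hairpin 2 was low, 43.7-fold below hairpin 1 (18.1-fold with normexp). Cdx2, the homeobox transcription factor that specifies intestinal epithelium, was at −0.70, 1.03, −0.86, −1.56 and 1.89 in the same order. Cdh17, the cadherin of intestinal epithelium, was at −7.12, −1.79, −5.49, −3.86 and 0.87. Both genes were highest on Pik3ca and next highest with hairpin 1. The differentiation keratin gene Krt20 was at −0.71, 4.94, 1.66, 2.65 and 4.50, and the gel-forming mucin gene Muc2 at −2.27, −0.90, −2.90, −1.78 and −1.27. Tff3, the trefoil peptide of goblet cells, was at −1.07, −2.70, −5.13, −2.88 and −0.53, and so was lowest with hairpin 2 but below the control with both hairpins. Lypd8, Cdhr5, Lgals4, Cdhr2 and Fabp2 completed the 11. Pik3ca lay nearer hairpin 1 in 10 of the 11, the control in 7 and Apc in 5. The median level of the 23 detected members was −1.07 on the control, −1.43 with hairpin 1, −3.17 with hairpin 2 and −0.53 on Pik3ca. Apc lay between the hairpins. By this median hairpin 2 was the lowest array and hairpin 1 lay slightly below the control. Some members, such as Cdx2 and Krt20, were above the control with hairpin 1. Olfm4, a marker of intestinal crypt stem cells, went the opposite way and was well above background with hairpin 2 but not with hairpin 1. Cdx1 and Vil1 were less than 2-fold apart, with differences of 0.57 and 0.16.

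Genes of the gastric lineages divided between the hairpins. Of 14 pit cell genes, 6 were higher with hairpin 1 and 0 with hairpin 2 (median 0.57), and of 9 chief cell genes, 0 were higher with hairpin 1 and 6 with hairpin 2 (median −1.08). Tff1, the trefoil peptide of surface mucus, was at 7.51 on the control, 6.96 with hairpin 1, 5.13 with hairpin 2, 6.31 on Apc and 5.58 on Pik3ca. Gkn2, a gastrokine that pit cells secrete with it, was at 0.41, −0.20, −2.45, −0.02 and −1.78. In both genes hairpin 2 was the lowest array and hairpin 1 was near the control. Psca, Mucl3, Muc5ac and Cldn18 were the other 4, and the control lay nearer hairpin 1 in all 6.

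The chief cell genes had the reverse order of the hairpins and a different order of the other arrays. Cym, the milk-clotting protease chymosin, was at 5.22 on the control, −0.81 with hairpin 1, 2.83 with hairpin 2, 6.18 on Apc and −3.94 on Pik3ca. Pgc, the zymogen progastricsin, was at 3.11, 0.01, 1.31, 0.23 and −2.41. Both hairpins were thus below the control, hairpin 1 the more so, and Pik3ca was lowest. Clps and Cblif were 2.10-fold and 2.76-fold higher with hairpin 2, and Pga5 was near background on all arrays. Dclk1, listed with the chief cell genes and also known as a tuft cell marker, was at −4.99, −4.58, −0.28, −3.59 and −1.15, and here the control was low. In these bulk arrays fewer cells of a type and less RNA per cell cannot be told apart.

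Mucins and trefoil factors share members with the intestinal and pit cell lists. Of 11 detected, 4 were higher with hairpin 1 (list median 0.72), and all 4 were counted above. Tff3 and Muc2 are among the intestinal genes, and Tff1 and Muc5ac among the pit cell genes. The 1 higher with hairpin 2 was the gland mucin gene Muc6, at −2.54 with hairpin 1 and −1.35 with hairpin 2. Endocrine markers were higher with hairpin 2 in 4 of 11 (median −0.71). Cpe, the carboxypeptidase that trims prohormones, was at 0.48, 1.44, 4.69, 3.78 and 3.91 from control to Pik3ca, and Bex1 at −2.64, −1.54, 1.41, 5.58 and −0.24. The hormone gene Sst and the granule protein gene Chga were 4.41-fold and 3.81-fold higher with hairpin 2. The endocrine transcription factor gene Insm1 was well above background with hairpin 2 only, at least 25.9-fold higher there. The list was not one-sided. Of its members 4 were well above background with hairpin 2 only and 2 with hairpin 1 only, and of the 11 differences 8 were negative and 3 positive. Of 14 parietal cell genes, 0 were higher with hairpin 1 and 1 with hairpin 2, and their median was −0.11. The foregut factor Sox2 was at 1.02 with hairpin 1 and 1.15 with hairpin 2.

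Wnt target and feedback genes were higher with hairpin 2, in 5 of 18 members against 0 with hairpin 1 (median −0.55). Nkd1, an inhibitor that Wnt signalling induces, was at −1.80 on the control, −5.56 with hairpin 1, 1.13 with hairpin 2, 3.60 on Apc and −3.22 on Pik3ca. Apc was highest, hairpin 2 next, and hairpin 1 the lowest array, 103-fold below hairpin 2 (21.3-fold with normexp). Axin2, the feedback scaffold of the destruction complex, was at −1.19, −2.43, −1.18, 1.13 and −0.83. Bambi was at −2.51, −3.93, −2.59, −0.72 and −1.53. In both genes hairpin 2 was level with the control to within 0.1 and hairpin 1 lay below it. Apcdd1 and Tnfrsf19, at −5.62 and −0.29 with hairpin 1 and at −2.68 and 1.69 with hairpin 2, were highest on Apc as well. In each of the 5 genes Apc lay nearer hairpin 2. The stem cell receptor gene Lgr5, a Wnt target, was at 2.25 with hairpin 1 and 2.58 with hairpin 2 and so was not divergent.

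Wnt ligands and their receptors had 7 of 21 members higher with hairpin 2 and 0 with hairpin 1, although their median was nearer 0, at −0.35. Wnt6 was at −3.90, −5.02, 0.70, 2.74 and −4.08 from control to Pik3ca, high with hairpin 2 and on Apc alone. Wnt10a was at −1.88, −0.52, 3.27, 2.27 and −1.19, with the same pair of arrays high. Wnt5a, a ligand of non-canonical signalling, was at −1.31, −4.22, −1.78, −1.25 and −1.76, and hairpin 1 stood below the 4 others. The receptor gene Fzd2 and the ligand genes Wnt5b, Wnt7a and Wnt7b were 2.17-fold to 3.46-fold higher with hairpin 2.

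BMP and TGF-beta genes had 8 of 25 members higher with hairpin 2 and 3 with hairpin 1 (median −0.31). Tgfb2, a TGF-beta ligand, was at −4.97 on the control, −3.12 with hairpin 1, 0.14 with hairpin 2, −0.50 on Apc and −3.20 on Pik3ca. Inhba, an activin subunit, was at −3.39, −4.12, −1.61, −0.78 and −2.41. Both were high with hairpin 2 and on Apc. Bmp1, Bmp6, Bmp4, Inhbb and Tgfb3 were the other ligand, subunit and protease genes higher with hairpin 2. Bmp7 went the opposite way, at 3.30, 3.02, 0.05, 2.61 and 1.01, and was 7.83-fold lower with hairpin 2. Of 24 YAP targets and Tead factors, 5 were higher with hairpin 2 and 0 with hairpin 1 (median −0.55). Ankrd1, a YAP target, was at −2.12, 0.77, 3.16, 0.95 and 1.34, Ccn1 at 0.67, 1.37, 2.76, 2.00 and 1.16, and the transcription factor gene Tead2 at 1.13, 1.56, 3.06, 3.21 and 3.24. Hairpin 2 was the highest array for Ankrd1 and Ccn1, while for Tead2 it was level with Apc and Pik3ca.

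Matrix proteases and their inhibitors had 7 of 17 members higher with hairpin 2 and 2 with hairpin 1 (median −0.69), although 8 differences were positive and 9 negative. Mmp7, the epithelial metalloprotease matrilysin, was at −3.31 on the control, 1.15 with hairpin 1, 5.15 with hairpin 2, 3.46 on Apc and 6.22 on Pik3ca. All 4 tumour-derived arrays exceeded the control, and the hairpins were 16.1-fold apart. Timp3, an inhibitor of metalloproteases, was at −3.85, −3.87, −0.79, 0.43 and −2.57, and Serpine2 at −0.29, −5.05, −2.89, −2.06 and −2.46. Timp1, Timp2, Mmp14 and Plau were 2.01-fold to 2.54-fold higher with hairpin 2, so the group held proteases and inhibitors alike. Plat, the tissue plasminogen activator gene, and Mmp23 were 3.13-fold and 2.21-fold higher with hairpin 1. With dim spots kept in, the median of this list changed sign, to 0.025.

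Genes of the mesenchymal programme were divergent in part. Of 11 detected members, 4 were higher with hairpin 2 and 0 with hairpin 1 (median −0.42). Prrx2, a homeobox gene of mesenchyme, was at −4.63, −2.70, 2.02, 1.85 and 2.69 from control to Pik3ca, a difference of −4.72, while its other probe gave −1.99. Cdh2, the neuronal cadherin, was at −4.41, −3.74, −1.38, −1.24 and −2.68, and Fn1, fibronectin, at 0.62, 2.45, 4.49, 5.03 and 3.30. For these 3 genes hairpin 1 was the lowest of the tumour-derived arrays. Vim, the mesenchymal intermediate filament gene vimentin, was at −4.44 with hairpin 1 and −4.70 with hairpin 2, and Zeb1, a repressor of Cdh1, was above background on neither array. The epithelial splicing factor gene Esrp1 was at 3.09 and 2.81, and Grhl2, an epithelial transcription factor gene, differed by −0.32. Of the 21 classical cadherins and catenins, 1 was higher with hairpin 1 (Cdh17) and 2 with hairpin 2 (Cdh2 and Cdh3), and the catenin genes Ctnnb1 and Ctnnd1 differed by −0.37 and 0.05. Of 26 detected collagens, 2 were higher with hairpin 1 and 6 with hairpin 2, beside 2.95% and 4.91% over all genes. Col4a1 and Col4a2, the basement membrane pair, were 2.80-fold and 3.64-fold higher with hairpin 1. Col16a1, Col14a1, Col6a1, Col7a1, Col26a1 and Col8a1 were 2.14-fold to 8.65-fold higher with hairpin 2, with Col16a1 the farthest apart.

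**Figure D4:**
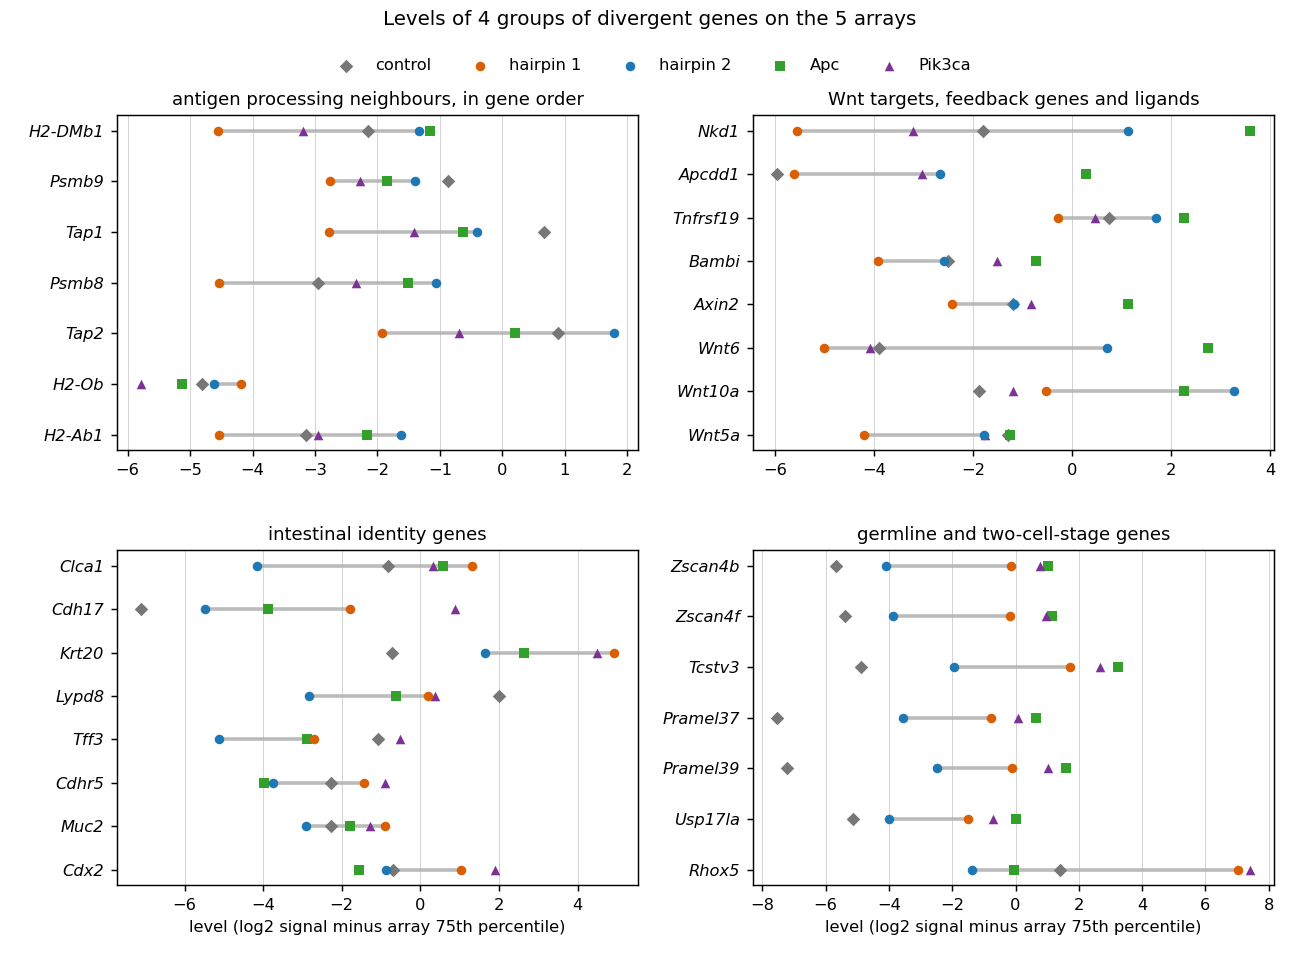
Levels on the 5 arrays (horizontal axis, log2 signal minus the 75th percentile of the array) of genes from 4 groups, with a grey bar joining hairpin 1 to hairpin 2. In the antigen processing neighbours, 6 of 7 genes were higher with hairpin 2, in the Wnt genes Apc was at or above hairpin 2 except for Wnt10a, in the intestinal genes hairpin 1 was above hairpin 2 throughout, and in the germline genes other than Rhox5 the order was control, hairpin 2, hairpin 1, Pik3ca, Apc.

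Genes of antigen processing were higher with hairpin 2, in 6 of 18 members against 0 with hairpin 1 (median −0.76). Tap1 and Tap2, the subunits of the transporter that carries peptides to MHC class I, both belonged to them. Tap2 was at 0.90 on the control, −1.92 with hairpin 1, 1.79 with hairpin 2, 0.20 on Apc and −0.69 on Pik3ca. Tap1 was at 0.67, −2.77, −0.41, −0.63 and −1.42 in the same order. Psmb8 and Psmb9, subunits of the immunoproteasome, were at −4.54 and −2.76 with hairpin 1 and at −1.06 and −1.40 with hairpin 2. In all 4 genes hairpin 1 was the lowest of the 5 arrays. The MHC class II genes H2-Ab1 and Cd74 were 7.50-fold and 6.80-fold higher with hairpin 2, and Ciita, the regulator of class II genes, was well above background with hairpin 2 and not with hairpin 1. In all 6 divergent members Apc lay nearer hairpin 2.

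5 of these genes lie close to each other. In gene order, H2-DMb1, Psmb9, Tap1, Psmb8, Tap2, H2-Ob and H2-Ab1 were consecutive among detected genes, and all except H2-Ob were higher with hairpin 2, by 1.36 to 3.72. H2-DMb1, which helps to load class II molecules, was at −2.16, −4.56, −1.34, −1.16 and −3.20 from control to Pik3ca. H2-Ob had a difference of 0.44. Tap1 and Psmb9 are read in opposite directions from 1 short stretch of DNA, shown here because both were higher with hairpin 2. The stretch between their starts has 225 bases and comes from the RefSeq promoter table of assembly GRCm38.p6 (chr17:34187331-34187555, strand of Tap1). The capitals mark a GC box, GGGCGG on either strand, here on the strand of Psmb9.

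Tap1-Psmb9: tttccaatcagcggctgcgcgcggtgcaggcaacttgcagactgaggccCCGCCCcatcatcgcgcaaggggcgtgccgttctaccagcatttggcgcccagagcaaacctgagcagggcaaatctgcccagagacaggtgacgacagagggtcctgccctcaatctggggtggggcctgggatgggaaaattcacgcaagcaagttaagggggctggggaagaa

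A GC box was present in 31.9% of windows of this length before the starts of 32851 promoters. The letters of the GAS-type motif TTCNNNGAA, searched on both strands, are not in this window, and 6.23% of the windows held them.

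Interferon-stimulated genes as a list were not shifted, with a median of 0.01 and with 4 of 30 members higher with each hairpin. Oas2, Ifit3b, Irf7 and Oasl1 were 2.36-fold to 3.43-fold higher with hairpin 1. Igtp, Gbp2, Irgm1 and Parp14 were 2.05-fold to 4.70-fold higher with hairpin 2. The guanylate-binding and immunity-related GTPases, resistance proteins of cells against pathogens, had 5 of 8 detected members higher with hairpin 2 and 0 with hairpin 1 (median −1.32). Igtp was at −2.83 on the control, −4.41 with hairpin 1, −2.18 with hairpin 2, −0.63 on Apc and −3.25 on Pik3ca, and Irgm1 at 0.05, −0.56, 0.74, 0.43 and −0.09. In both genes hairpin 1 was the lowest array. Cd274 and Pdcd1lg2, neighbouring genes of the ligands of the T cell receptor PD-1, were 3.65-fold and 2.22-fold higher with hairpin 2.

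Chemokine, cytokine and acute phase genes had 10 of 37 members higher with hairpin 2 and 2 with hairpin 1 (median −0.25). Ccl20, a chemoattractant of lymphocytes, was at −0.26, 0.69, 2.53, −0.16 and −1.15 from control to Pik3ca, highest with hairpin 2. Lcn2, an iron-sequestering acute phase protein, was at −3.64, −3.10, −0.54, −0.0029 and −2.60, high with hairpin 2 and on Apc. The CXC chemokine genes that neighbour each other divided. Cxcl5, Cxcl3, Cxcl15 and Cxcl2 were 2.04-fold to 3.46-fold higher with hairpin 2, and Ppbp, Pf4 and Cxcl1, interspersed among them, were 2.11-fold to 2.98-fold higher with hairpin 1. Cxcl17, a mucosal chemokine, was at 2.88, 1.49, −1.23, 0.99 and −0.37, lowest with hairpin 2.

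Germline and cleavage-stage genes, which are silent in most adult tissues, formed the list with the largest median, 2.50, with 9 of 15 detected members higher with hairpin 1 and 1 (Asz1) with hairpin 2. Zscan4f, a marker of cleavage-stage embryos and of a rare state of cultured stem cells, was at −5.39 on the control, −0.19 with hairpin 1, −3.88 with hairpin 2, 1.16 on Apc and 0.96 on Pik3ca. Tcstv3 was at −4.87, 1.72, −1.94, 3.22 and 2.67, and Pramel39 at −7.22, −0.10, −2.49, 1.59 and 1.02. The order of the arrays was the same in all 3 genes, with hairpin 2 between the control and hairpin 1. Of 10 detected Pramel genes, 6 were higher with hairpin 1 and 0 with hairpin 2 (median 2.24).

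The values of single genes in these families are uncertain, because their copies are alike and a probe may bind several of them. Zscan4a, Zscan4b, Zscan4c and Zscan4f were consecutive and higher with hairpin 1 by 3.21 to 3.97. The stretches before Zscan4c (chr7:11005495-11005721) and Zscan4f (chr7:11397688-11397914) are shown as an example of likeness between copies. These upstream stretches are not the transcripts that the probes read, so they do not show whether a probe binds several copies. They come from the same RefSeq table, both on the forward strand, and were set against each other with an offset of 23 bases, which left 227 positions, of which 99.6% were identical. The capital marks the 1 position that differs.

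Zscan4c: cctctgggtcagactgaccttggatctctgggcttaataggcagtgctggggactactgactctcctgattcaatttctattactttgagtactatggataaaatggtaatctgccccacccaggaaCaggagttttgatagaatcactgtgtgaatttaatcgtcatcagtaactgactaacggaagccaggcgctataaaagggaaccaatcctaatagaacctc
Zscan4f: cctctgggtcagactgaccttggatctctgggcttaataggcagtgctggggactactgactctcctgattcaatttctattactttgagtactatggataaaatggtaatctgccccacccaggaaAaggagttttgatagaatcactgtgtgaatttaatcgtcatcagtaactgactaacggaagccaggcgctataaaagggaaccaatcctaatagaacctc

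All 29 sterol and fatty acid synthesis genes were well above background, 5 of them were higher with hairpin 1 and 0 with hairpin 2, 27 had a positive difference, and the median was 0.68. Insig1, the sterol-regulated retention protein of the pathway, was at 0.66 on the control, 2.02 with hairpin 1, −0.25 with hairpin 2, 0.65 on Apc and 1.80 on Pik3ca. Lss, lanosterol synthase, was at 3.63, 4.64, 3.16, 3.11 and 3.83. Hairpin 1 was the highest array and Pik3ca the next in both genes, although for Lss Pik3ca was near the control. Dhcr7 and Scd1 were 2.22-fold and 2.06-fold higher with hairpin 1, while Sqle and Hmgcs1 stayed under 2-fold, with differences of 0.90 and 0.73.

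The cytochromes P450, oxidases of drugs, retinoids and lipids, had 10 of 41 detected members higher with hairpin 1 and 2 with hairpin 2 (median 0.43). Cyp2c65 was at 3.16 on the control, 0.11 with hairpin 1, −4.66 with hairpin 2, −1.71 on Apc and −2.72 on Pik3ca. Cyp2c66, its neighbour, was at 2.20, −1.06, −4.31, −2.59 and −3.44. In both genes every tumour-derived array was below the control, hairpin 2 the most and hairpin 1 the least. Cyp2c29 follows them and was 3.32-fold higher with hairpin 1, and Cyp2b10 and Cyp2s1 were 4.18-fold and 2.40-fold higher. In the retinoid list 4 of 14 members were higher with hairpin 2 and 1 with hairpin 1. Aldh1a2, which makes retinoic acid, was at −5.23, −4.25, −0.05, −2.48 and −3.20, highest with hairpin 2.

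None of 35 mitotic and cell cycle genes, 10 cell cycle inhibitors or 25 respiratory chain genes was 2-fold apart, with medians of −0.18, −0.01 and 0.24. These lists are bright, with median levels with hairpin 1 of 3.21, 1.98 and 5.78 against 0.32 over all genes. In the brightest quartile only 2.17% of genes were divergent, so few divergent members would be looked for in lists of this size. Mki67, the proliferation marker, was at 4.63 with hairpin 1 and 4.76 with hairpin 2, and Top2a at 4.59 and 4.77. Of 32 p53 targets, 2 were higher with hairpin 1 and 3 with hairpin 2 (median −0.08).

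Beside the divergent genes, 597 genes were well above background with hairpin 1 and not with hairpin 2 (3.62% of the 16489 detected on either array), and 754 with hairpin 2 and not with hairpin 1 (4.57%). These have only a bound, the brighter level against the higher of the dim probe's own level and the lowest level well above background on that array. The bound was at least 2-fold for 121 of the 597 and 242 of the 754. Igfbp7, a secreted protein that binds growth factors, was at −3.59 on the control, −6.53 with hairpin 1, 1.45 with hairpin 2, 2.48 on Apc and −3.93 on Pik3ca. It was at least 161-fold higher with hairpin 2. Mvb12b, a subunit of the endosomal sorting machinery, was at −1.94, −6.93, 1.35, 0.54 and −0.07, at least 151-fold higher with hairpin 2 and low with hairpin 1 alone. Irx2, an Iroquois homeobox gene, was at −2.80, −8.08, −1.11, −1.65 and −8.17, not above background with hairpin 1 and on Pik3ca.

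The Iroquois genes Irx3 and Irx5 shared the direction of Irx2, Irx3 as a divergent gene 10.8-fold higher with hairpin 2 and Irx5 as detected with hairpin 2 alone. The homeobox list had 60 measured genes, of which 15 were detected with both hairpins, 8 with hairpin 2 alone and 1 with hairpin 1 alone, beside 4.57% and 3.62% over genes detected on either array. In the other direction Xlr4b, an X-linked gene of the Xlr family with near-identical copies and so uncertain, was at 2.96, −0.68, −8.00, 1.09 and −4.05 from control to Pik3ca, at least 37.5-fold higher with hairpin 1. Xlr3b was at least 13.7-fold higher. Spink11, Ccdc178, Ntm and Il2 were well above background with hairpin 1 and on no other array, at bounds of 8.45-fold to 13.9-fold.

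The remaining 3 arrays were placed between the hairpins gene by gene. Over the 1189 divergent genes the control lay nearer hairpin 1 in 62.5%, Apc in 36.5% and Pik3ca in 57.9%, beside 53.05%, 44.6% and 54.7% over all 15138 genes. For the 743 genes higher with hairpin 2, Apc lay nearer hairpin 2 in 556 (74.8%), beyond it in 263 of them, while the control lay nearer hairpin 1 in 461 and Pik3ca in 387. For the 446 genes higher with hairpin 1, Pik3ca lay nearer hairpin 1 in 302 (67.7%), the control in 282 and Apc in 247. All 3 arrays were nearer hairpin 1 in 16.99% of the divergent genes and nearer hairpin 2 in 11.9%. Over all 15138 genes the shares were 19.9% and 17.7%, so that in most genes, divergent or not, the other arrays divided. The control shares its slide with both hairpins, and Apc and Pik3ca share another, so the positions of these 2 arrays and their slide cannot be told apart.

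**Figure D5:**
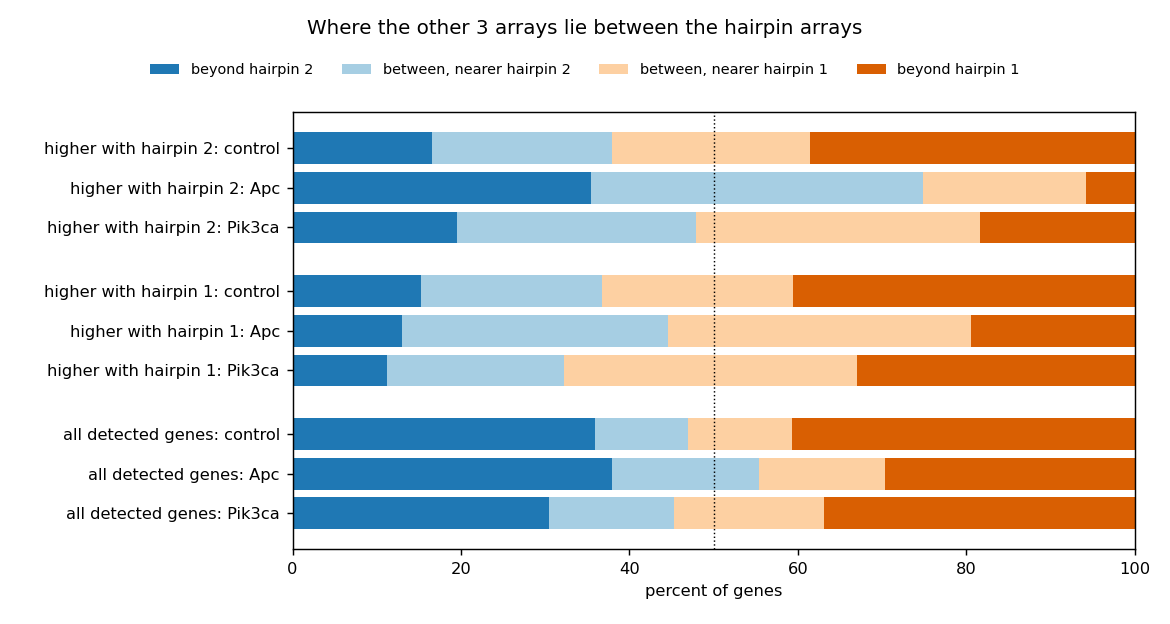
Percent of genes (horizontal axis) in which the control, Apc or Pik3ca array lay beyond hairpin 2, between the hairpins or beyond hairpin 1, for the 743 genes higher with hairpin 2, the 446 higher with hairpin 1 and all 15138 detected genes, with a dotted line at 50%. For the genes higher with hairpin 2 the dark and light blue parts of the Apc bar add up to 74.8%, and for those higher with hairpin 1 the orange parts of the Pik3ca bar add up to 67.7%.

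Some genes set 1 hairpin apart from all 4 other arrays. Hairpin 1 was at least 2-fold lower than each other array in 83 genes and higher in 14, and hairpin 2 was lower in 77 and higher in 59. By the same rule the control was lower in 391 and higher in 331, Pik3ca in 116 and 158, and Apc in 31 and 143. The rule was not even, because only genes detected with both hairpins were counted, while the other arrays could be lowest through an undetected gene. Among the 14578 genes detected on every array, the control was lower in 254, Pik3ca in 81 and Apc in 18. The lower counts of the hairpins stayed at 83 and 77. The higher counts there were 324, 140 and 133, with 9 for hairpin 1 and 45 for hairpin 2. Hairpin 1 was lowest in Fxyd6, a regulator of the sodium pump, at 2.23 on the control, −2.25 with hairpin 1, 2.08 with hairpin 2, 2.91 on Apc and 0.32 on Pik3ca. It was also lowest in the imprinted RNA H19, at −1.69, −4.20, −1.98, 0.15 and −0.24. Smoc2, a matricellular protein that marks stem cells, was at 2.53, −1.73, 1.07, 2.87 and 0.75. In these 3 genes hairpin 1 was thus at least 2-fold below each of the 4 other arrays, which also differed among themselves. Hairpin 2 was lowest in Rbp7, a retinol-binding protein, at −1.17, −1.49, −4.21, −0.99 and 0.42, and in Crip2, a LIM domain protein, at 4.47, 3.89, 0.97, 3.52 and 2.86. Bcl2a1d, an anti-apoptotic gene with near-identical copies and so uncertain, was at −8.25, −0.79, −3.37, −4.99 and −4.68, highest with hairpin 1.

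Divergent genes were also read along the genome, by gene order alone. Runs of at least 3 divergent genes in the same direction, with at most 2 other detected genes between neighbours, numbered 18 with 65 genes for hairpin 1 and 28 with 92 genes for hairpin 2. The number of runs that the shares of divergent genes alone would give was not computed. Some runs hold like copies, such as the Zscan4 and Pramel genes, whose probes may bind several of them. Besides the runs already described, Ceacam1 and Ceacam2, adhesion molecules with near-identical sequence and so uncertain singly, lay with Cnfn and Cxcl17 in a run of 5 genes higher with hairpin 1, at 2.56 and 2.63 with hairpin 1 and at −0.72 and −0.84 with hairpin 2. The glucuronosyl- and sulfotransferase genes Ugt2b35, Ugt2a3, Ugt2b38, Sult1b1 and Sult1d1, which conjugate lipophilic compounds for export, were higher with hairpin 1 by 1.05 to 4.24. Mmp7 lay with Birc2 and Birc3, inhibitors of apoptosis, and these were 2.14-fold and 2.16-fold higher with hairpin 2. Bex1 lay with Armcx1, Armcx2 and Zmat1. The median difference over 51 neighbouring genes ran from −0.36 to 0.48.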

How the data were processed

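RNA from 5 organoid samples was hybridised to 1 array each, labelled with Cy3 per the labels' protocols. The scanner software was Agilent Feature Extraction 11.0.1.1, per the submitters' processing notes. Each spot's processed intensity had been background-subtracted and detrended by that software but not scaled between arrays, per the file headers. The table of values that the authors deposited holds log2 values. Its difference between the hairpins followed the scanner values over 53359 probes with slope 1, correlation 1 and a constant of 0.0028, which settles scale and direction, while the baseline of each probe is not known. The medians of its columns were −0.057 (control), 0.074 (hairpin 1), 0.031 (hairpin 2), −0.080 (Apc) and 0.022 (Pik3ca).

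Here log2 intensity was reduced by each array's 75th percentile, control spots and outliers (78 to 114 per array) were left out, and no spot was saturated. Each array had 61.8% to 65.3% of its spots well above background, with a 75th percentile at 24.0 to 27.9 times the median local background. Of 56605 probes, 34561 matched 1 gene symbol through their accession in a RefSeq gene table (GRCm38.p6, names and gene order only) and 22044 matched none. A gene was represented by its probe with the highest mean signal. The number of arrays limits the precision, and no test was run. The scaling and the 2-fold threshold were tested on simulated data with planted differences. These lay well past the threshold with little noise, so the outcome says nothing about dim genes or differences near 2-fold. Named genes were the 20 largest differences each way, up to 6 divergent members per list with the members that define it, the 10 largest bounds each way and the targeted genes, without clone-type names, and some are not reported here. Genes named for standing alone or by neighbourhood were chosen after their values were seen. The members and lists were chosen with earlier results of these data known. Alternatives used median, quantile or cyclic loess scaling, normexp background (limma 3.58.1, R 4.3.3), the deposited table, other filters on dim spots, a mean over probes and a 4-fold threshold.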

Additional observations from a re-analysis of the deposited data

How the results depend on the processing

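With 1 array per hairpin there is no measure of spread between cultures, and dim genes, which hold most of the divergent calls, have the least signal over background. Median, quantile and cyclic loess scaling, the deposited values, the filter on all 5 arrays and the mean over probes gave 1093 to 1210 divergent genes, 1093 to 1187 of them shared with the 1189. Among the scalings, cyclic loess moved the split most, to 404 and 806. With normexp background, whose offset of 50 shrinks dim differences, 703 were divergent (267 higher with hairpin 1 and 436 with hairpin 2), 697 of them shared. Without a filter on dim spots 3315 were (1460 and 1855), and at 4-fold 306. The 40 genes with the largest differences kept direction and 2-fold size in all 311 values, but many of these values could hardly differ. The filters cannot change a gene's own difference, and median scaling and the deposited values shift every difference by a constant. The mean over probes leaves genes with a single probe unchanged. With normexp 29 of the 40 moved by over 1.5 times, and with the mean over probes 4 did (Cp, Mir100hg, Prrx2, Slco3a1), all toward 0. Of 432 list medians 1 reversed, that of the matrix proteases without the filter (0.025 against −0.69), where the filter's removal adds dim genes, and 6 lists were then shifted by 0.5 in place of 11. With the software's looser detection flag, 1115 genes were detected with hairpin 1 alone and 1148 with hairpin 2 alone. The share of divergent genes nearer hairpin 1 was 55.4% for the control, 42.9% for Apc and 54.3% for Pik3ca without the filter, and 67.6% for the control with normexp. The cause of these shifts was not tested. No paired analysis was possible because each hairpin has 1 array and no test was run.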

Other observations

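Zinc finger genes of the Zfp series, mostly presumed DNA-binding repressors, leaned toward hairpin 2. Of 325 detected members 35 were at least 2-fold higher with hairpin 2 (10.8%, beside 4.91% over all genes) and 8 with hairpin 1 (2.46%, beside 2.95%). Their median was −0.17, and a further 23 were detected with hairpin 2 alone against 5 with hairpin 1 alone. They are dim, with median levels of −1.09 with hairpin 1 and −0.88 with hairpin 2, against 0.32 and 0.39 over all genes. In the lowest quartile of mean signal 333 of 3785 genes were higher with hairpin 2 and 185 with hairpin 1. In the next quartile 285 and 144 of 3784 were. Part of the distance from 4.91% thus goes with dim signal. Zfp467 was at 0.27 on the control, −2.29 with hairpin 1, −0.13 with hairpin 2, 0.55 on Apc and 0.24 on Pik3ca, low with hairpin 1 alone. A run of Zfp84, Zfp30 and Zfp940 was higher with hairpin 2 and one of Zfp729b, Zfp729a and Zfp273 was higher with hairpin 1, and as many of these genes have close copies their single values are uncertain. The Ly6 family of surface proteins had 5 of 21 detected members higher with hairpin 1 and 0 with hairpin 2, among them Ly6d, at 6.21, 4.52, 1.63, 3.34 and 4.96 from control to Pik3ca.

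Inflammasome genes were divergent in both directions, a group chosen after its values were seen. Aim2, a sensor of cytosolic DNA, was at −1.15 on the control, 0.81 with hairpin 1, −1.90 with hairpin 2, −3.08 on Apc and 0.38 on Pik3ca, and the adaptor gene Pycard was at 1.18, 1.55, −1.37, 0.96 and 0.59, low with hairpin 2 alone. Casp1 was well above background on every array except hairpin 2, at least 12.2-fold higher with hairpin 1. Casp4, the caspase that senses bacterial lipopolysaccharide, had the opposite order, at 0.08 with hairpin 1 and 2.59 with hairpin 2, 5.70-fold apart, and Casp12 was at least 21.3-fold higher with hairpin 2.

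Spots whose accession matched no gene symbol leaned the other way from named genes. Of 11585 such spots well above background on both arrays, 288 were at least 2-fold higher with hairpin 1 and 191 with hairpin 2 (4.13% in all), while of 23420 spots with a symbol 602 and 977 were (6.74%). Over 51 neighbouring genes the median difference was highest around Irf7, at 0.48, and lowest around Csgalnact2, at −0.36.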
